A study of Caenorhabditis elegans with 8 samples.

Results

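The right end of chromosome IV of Caenorhabditis elegans carries the last stretch of the large piRNA cluster of that chromosome. The piRNAs described here are the loci of the deposited table that lie on chromosome IV and start at 17 Mb or beyond. They were chosen by position alone and number 325 of the 9742 listed piRNAs, or 325 of the 8018 listed on chromosome IV from 13 Mb. The 8 small-RNA libraries came from whole worms of 4 genotypes, with 2 libraries per genotype: kin-3 worms cultured with 500 µM IAA (auxin), and prde-1, prg-1 and WT worms, all untreated. The kin-3 genotype and the IAA therefore cannot be told apart, and all 3 genotypes besides WT are called mutants here. All groups share the treatment of the RNA with the polyphosphatase PIR-1 before ligation. The labels give no allele, tag on KIN-3, developmental stage or number of worms. Values are in RPM, read numbers that the authors scaled to 1e6 per library. The total behind that scaling was 341001 and 562081 reads for the kin-3 libraries, 5337646 and 5608712 for the prde-1 libraries, 969718 and 699884 for the prg-1 libraries, and 1342764 and 913321 for the WT libraries, so that 1 read is worth between 0.178 RPM in a prde-1 library and 2.93 RPM in a kin-3 library.

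piRNAs of worms, also called 21U-RNAs, are germline small RNAs that guide the Piwi Argonaute PRG-1 to foreign and germline transcripts. Most come from chromosome IV, where each locus is a small transcription unit of its own. A short capped precursor is made at each, and the mature, trimmed piRNA is bound by PRG-1. PRDE-1 belongs to the upstream sequence transcription complex, which with TOFU-4, TOFU-5 and SNPC-4 occupies piRNA loci and is needed for the precursors. The kin-3 gene encodes the catalytic subunit of the kinase CK2 (casein kinase II), which the title of the series ties to piRNA production through phosphorylation of TOFU-4.

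Listed loci were not spread evenly over the chromosome end. By coordinates and strand, 322 of the 325 matched a piRNA gene of the WBcel235 annotation, out of 502 annotated there from 17 Mb on; the other 3 are named by their table identifiers only and had no read in any library. The last listed locus before 17 Mb was 21ur-6245 (start 16995073, no WT read), and the outermost members were 21ur-2854 (start 17015141, no WT read) and 21ur-8982 (start 17469644, 0.547 ± 0.774 RPM in WT, SD, n = 2). A left block of 121 loci ended with 21ur-5151 at 17074978. After 54656 bases without a listed locus, a middle block of 197 loci ran from 21ur-3583 at 17129634 to 21ur-12651 at 17267446. After a further 68847 bases, only 7 loci followed, here called the outer end. The blocks were set by these gaps and not by levels. Starts of neighbouring members lay a median of 331 bases apart, and 71 members overlapped another, 39 of the 45 overlapping pairs being on the same strand. The members of a same-strand overlap share sequence and are not independent loci.

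The minus strand held more loci than the plus strand, 199 against 126, or 61.2% minus. In the windows from 13, 14, 15 and 16 Mb the minus strand held 49.7%, 49.8%, 49.3% and 52.4%. The left and the middle block had nearly the same composition, with 74 of 121 and 120 of 197 on the minus strand. In WT the summed levels ran the other way: plus-strand loci summed to 248 ± 6.64 RPM and minus-strand loci to 200 ± 12.5 RPM (SD, n = 2), with 6 of the 10 most abundant members on the plus strand. That order rests on the plus-strand locus 21ur-13680: without it the plus strand summed to 178 ± 3.47 RPM, below the minus strand. These are descriptions of the list, with no test over loci.

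As to hosts, 217 members lay outside coding genes, 90 in coding introns, 13 in coding exons and 5 in UTRs. The shares, 66.8%, 27.7%, 4.0% and 1.54%, compare with 65.9%, 31.2%, 1.94% and 1.01% of the 7693 listed loci at 13 to 17 Mb. The most populated hosts were C52D10.3, with 28 loci, cnnm-1, a gene of the CNNM family linked to magnesium transport, with 27, and npr-32, a predicted neuropeptide receptor gene, with 11. Loci sense to a coding gene (53) and antisense to one (55) were equally common, but the antisense loci summed to 143 ± 2.14 RPM in WT and the sense loci to 31.3 ± 2.16 RPM. Of the antisense level, 71.7 ± 2.37 RPM came from 4 loci in nhr-229, a gene of the nuclear hormone receptor family, and nearly all of that from 21ur-13680 (70.0 ± 3.18 RPM). Without 21ur-13680 the antisense loci summed to 73.0 ± 1.04 RPM, still above the sense loci. Most of that came from 21ur-4684 (WT mean 26.4 RPM), 21ur-7418 (16.4 RPM) and 21ur-8034 (12.0 RPM). The higher antisense sum thus rests on a few abundant loci. A read was found for 20 and 15 of the 55 antisense loci in the WT libraries, and for 18 and 15 of the 53 sense loci. None of the 5 loci in UTRs had a WT read.

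**Figure D1:**
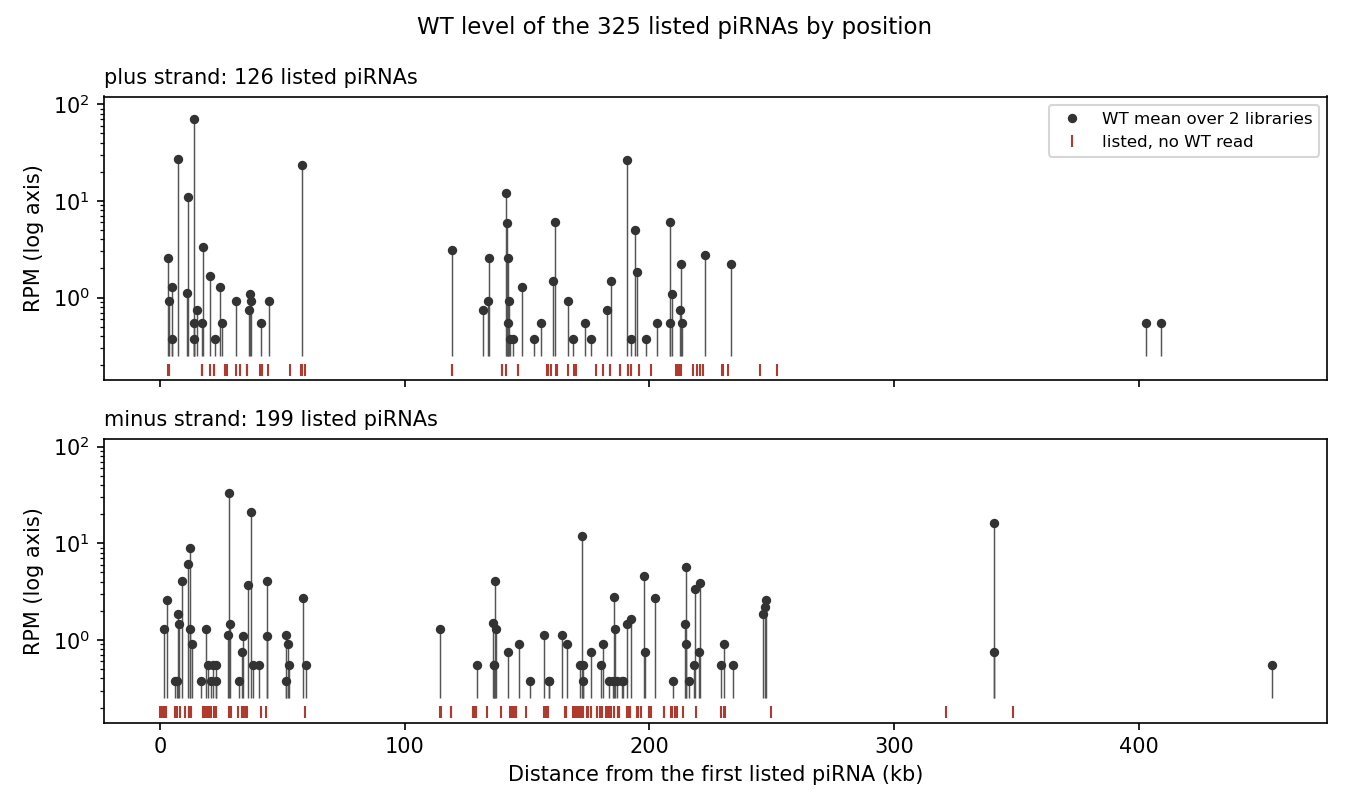
WT level of each listed piRNA (RPM, log axis, mean of 2 libraries) against its distance in kb from the first listed locus, plus strand above and minus strand below; red ticks mark loci with no WT read. The 121 loci of the left block and the 197 of the middle block are separated by an empty stretch, and 7 loci lie beyond the second gap.

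In WT, a minority of the loci carried the level. A read was found for 115 and 103 of the 325 members in the 2 WT libraries, for 68 of them in both, for 82 in only 1, and for 175 in neither. Of the members, 10, written here as the top 10, had a WT mean of at least 10 RPM, 6 had 5 to 10 RPM, 52 had 1 to 5 RPM and 82 had less. The top 10 held 55.9% and 56.4% of the WT level of the right end, against 31.0% and 30.6% for the 10 most abundant of the 775 loci at 13 to 14 Mb and 13.5% to 21.3% in the windows from 14, 15 and 16 Mb, which hold more loci. The level per listed locus, 1.39 and 1.37 RPM, was near that of the window from 16 Mb (1.39 and 1.37 RPM) and below that of the window from 14 Mb (1.74 and 1.74 RPM). The WT libraries agreed within sampling noise in a chi-square test over the 19 members with at least 10 reads (p = 0.772); their levels over all 325 members had r = 0.964 and rho = 0.551, as a description in which most members are at or near 0. Nothing in the labels says that the libraries came from separate cultures, so p-values and SDs measure a spread that may be technical.

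The left block carried more of the level than the middle block on fewer loci. It summed to 266 and 255 RPM in the WT libraries, 58.7% and 57.4% of the right end, over 60 loci with a WT read. The middle block summed to 171 and 168 RPM over 85 loci with a WT read. Per listed locus these are 2.20 and 2.11 RPM on the left and 0.869 and 0.850 RPM in the middle. Without 21ur-13680 the left block summed to 198 and 183 RPM, or 1.65 and 1.52 RPM per listed locus. The 10 most abundant loci of each block held 81.5% and 78.5% of the left block's level and 50.0% and 53.6% of the middle block's. A read was found for 37.2% and 36.4% of the left loci and 34.5% and 27.9% of the middle loci. The median level of loci with a read was 1.49 and 1.09 RPM in both blocks. The difference per listed locus thus lies mainly in a few abundant loci. The outer end summed to 15.6 and 21.9 RPM, most of it from 21ur-7418.

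The most abundant member was 21ur-13680 (17029029 to 17029049, plus strand), antisense within a coding exon of nhr-229. It stood at 0 and 3.56 RPM in kin-3 and at 0 in the prde-1 and prg-1 libraries, against 67.8 and 72.3 RPM in WT, where it held 157 of the 1014 reads of the whole right end. Its neighbour 21ur-7807 starts 2 bases downstream on the same strand and reached 0.745 and 0 RPM in WT, so nearly all WT reads of this overlapping pair were assigned to 21ur-13680. The next in the left block, 21ur-2683 (17043181 to 17043201, minus strand, in no annotated gene besides its own), had 1.43 RPM in prg-1 library 2 and no read in any other mutant library, against 39.5 and 26.3 RPM in WT. For both loci each mutant library lay far below each WT library.

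The next 3 loci of the left block had no read in any of the 6 mutant libraries. In WT, 21ur-4972 (start 17022684) stood at 25.3 and 28.5 RPM, 21ur-470 (start 17073362) at 25.3 and 21.9 RPM, and 21ur-1825 (start 17052315) at 24.6 and 17.5 RPM. 21ur-5702 (start 17026522) had 0 and 1.78 RPM in kin-3 worms, 0 in prde-1 worms, and 1.03 and 0 RPM in prg-1 worms, against 7.45 and 14.2 RPM in WT. It was the only member with a read in more than 1 mutant.

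In the middle block, 21ur-4684 (start 17205944, antisense within an intron of cnnm-1) had no mutant read, against 27.6 and 25.2 RPM in WT. 21ur-3972 (start 17156627, in no other gene) likewise had none, against 11.9 and 12.04 RPM in WT. 21ur-8034 (start 17187779, antisense within an intron of C52D10.3) had 2.93 and 0 RPM in kin-3 and none in the other mutants, against 9.68 and 14.2 RPM in WT. At the outer end, 21ur-7418 (17356008 to 17356028, minus strand, antisense within a coding exon of the C-type lectin gene clec-199) stood alone: it had no mutant read, against 14.1 and 18.6 RPM in WT. The other 6 loci there each had at most 2 reads in a WT library, among them 21ur-12167, which starts 3 bases before 21ur-7418 in the table's coordinates and overlaps it on the same strand.

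Another 11 members with WT means of 4.05 to 9.05 RPM passed the filter of the test given further on. The highest was 21ur-3184 (start 17027431, minus strand), with 0 and 0.178 RPM in prde-1 and no read in the other mutants, against 10.4 and 7.66 RPM in WT. The other 10 had no read in any mutant library; 21ur-9774 lies sense within an intron of C52D10.3, 21ur-6351 sense within an intron of npr-32, and the remaining 8 in no other annotated gene. The least steady of them was 21ur-9954, at 5.96 and 2.19 RPM in WT.

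**Figure D2:**
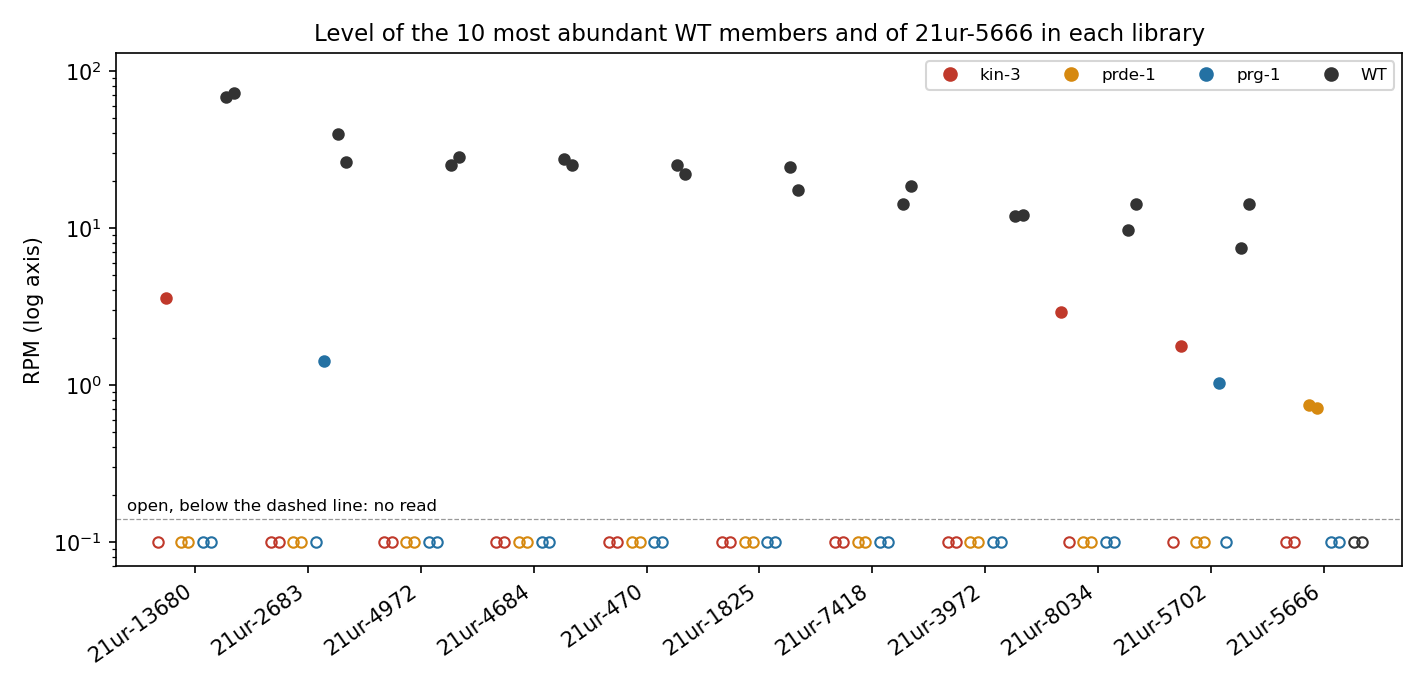
Level in each library (RPM, log axis) of the 10 most abundant WT members and of 21ur-5666, with the genotypes kin-3, prde-1, prg-1, WT from left to right; open circles below the dashed line mark libraries with no read. The WT points lie above all mutant points for the 10 loci, and 21ur-5666 has points in the prde-1 libraries only.

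Almost the whole level of the right end was missing in each mutant. The 325 members summed to 2.93 and 5.34 RPM in the kin-3 libraries, 1.31 and 1.43 RPM in the prde-1 libraries, and 1.03 and 1.43 RPM in the prg-1 libraries, against 453 and 445 RPM in the WT libraries. The means were 4.13 ± 1.70 RPM for kin-3, 1.37 ± 0.0813 RPM for prde-1, 1.23 ± 0.281 RPM for prg-1, and 449 ± 5.84 RPM for WT (each SD, n = 2). On pooled reads, and relative to 1014 reads in WT, the kin-3 level was 101-fold lower on 4 reads (95% counting interval 39.5 to 373), the prde-1 level 328-fold lower on 15 reads (198 to 588) and the prg-1 level 375-fold lower on 2 reads (104 to 3102). Of the 4 kin-3 reads, 2 belong to 21ur-13680, and without that locus the kin-3 level was 172-fold lower (47.3 to 1419). WT lay above the other 6 libraries (exact permutation p = 0.0357, two-sided, the smallest that 28 splits can give; 0.0714 adjusted by Benjamini-Hochberg over 4 tests, which misses 0.05). Loci with a read numbered 1 and 2 in the kin-3 libraries, 4 and 4 in the prde-1 libraries, and 1 and 1 in the prg-1 libraries, against 115 and 103 in the WT libraries (exact permutation p = 0.0357, adjusted 0.0714). At the depth of the shallowest library the expected numbers were 1.23 ± 0.320 for kin-3 libraries, 0.443 ± 0.0266 for prde-1 libraries, 0.419 ± 0.0959 for prg-1 libraries and 57.8 ± 0.621 for WT libraries (SD, n = 2).

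By block, the left block was 78.7-fold lower in kin-3 on 3 reads (95% counting interval 26.8 to 383). It was 1431-fold lower for prde-1 on 2 reads (394 to 11847) and 218-fold lower for prg-1 on 2 reads (60.2 to 1807). The middle block was 153-fold lower in kin-3 on 1 read (27.4 to 6071), 143-fold lower in prde-1 on 13 reads (82.6 to 271), and at least 94.5-fold lower in prg-1, which had none. In prde-1 these intervals do not overlap, but 8 of the 13 reads belong to the single locus 21ur-5666. Without that locus, picked out for its prde-1 reads, the middle block was 372-fold lower (158 to 1151). No mutant read fell on the outer end, which was at least 5.47-fold lower in kin-3, 66.3-fold lower in prde-1 and 10.1-fold lower in prg-1.

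These levels are shares of each library's pool. In RNA of whole worms, fewer germline cells and less piRNA per cell cannot be told apart. Rescaling by TMM, whose factors were 0.115 and 0.121 in prde-1 and 3.64 and 3.62 in WT, gave 1.56% of WT for kin-3, 9.39% for prde-1 and 0.908% for prg-1 instead of 0.922%, 0.305% and 0.274%. TMM takes most of the piRNAs it is fitted on as unchanged. Of the 695 it was fitted on, 97.8% (kin-3), 98.3% (prde-1) and 98.0% (prg-1) were called lower on the authors' scaling. Its factors can thus take up part of the loss, and its values do not measure the loss.

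**Figure D3:**
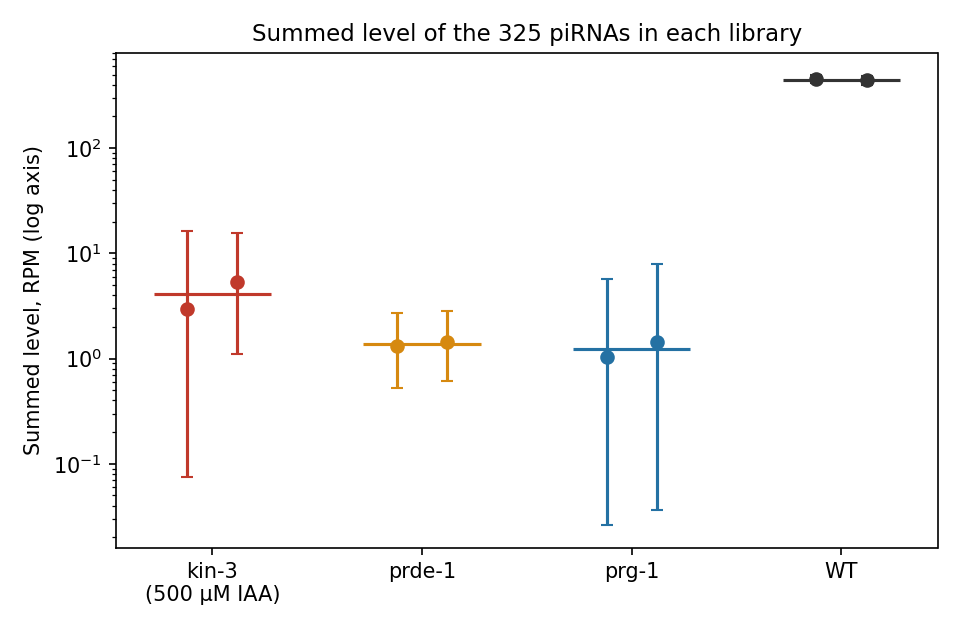
Summed level of the 325 members in each library (RPM, log axis), with exact 95% Poisson intervals on the reads of that library and a line at each genotype's mean. The 6 mutant libraries lie between 1.03 and 5.34 RPM and the WT libraries at 453 and 445 RPM.

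Of the 325 members, 21 passed the filter for the test of single piRNAs, an average over all 8 libraries of 1 RPM or more. With mutant values near 0, this took a WT mean of about 4 RPM (the lowest that passed was 4.05 RPM, the highest that did not 3.88 RPM), so passing itself favours a fall. Neither the count nor the p of any single member is therefore support for a fall, and both are given as descriptions. Limma called 21 of 21 lower in every mutant, beside 97.8% for kin-3, 98.3% for prde-1 and 98.0% for prg-1 among the 695 piRNAs tested in the whole table, a share near that of the members. It called none of the 21 higher, beside 0.288%, 0.863% and 0.432% of the whole table; none had an unadjusted p under 0.05 with a rise, and edgeR called none higher. The median log2 fold changes of the 21 were -2.82 for kin-3, -3.20 for prde-1 and -2.99 for prg-1, against -3.06, -3.06 and -3.04 over the 695. Leaving out a WT library changed the filter and moved the counts: without WT replicate 1, 11, 12 and 12 of 12 were called lower in the mutants in that order, and without WT replicate 2, 9, 11 and 10 of 11. Without the filter, 152 members could be tested and the same 68 were called lower in each mutant (44.7%, beside 45.4%, 45.4% and 45.3% of all 4878), which were the 68 with a read in both WT libraries.

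Single loci show how far the depth of each mutant reaches. 21ur-13680 was 31.4-fold lower in kin-3 worms on 2 reads against 157 in WT (95% counting interval 8.56 to 262; log2 fold change -5.06, SE 0.69, limma adjusted p = 8.3e-04). With no read in the other mutants it was at least 254-fold lower in prde-1 worms and at least 38.7-fold lower in prg-1 worms, taking 3 reads of a genotype's pooled total as the floor (3.32 RPM for kin-3, 0.274 RPM for prde-1 and 1.80 RPM for prg-1). 21ur-2683 was at least 10.3-fold lower in kin-3 worms, at least 125-fold lower in prde-1 worms, and 57.0-fold lower in prg-1 worms on 1 read against 77 (9.93 to 2280). At the outer end 21ur-7418 was at least 4.80-fold, 58.2-fold and 8.88-fold lower in the mutants, in the same order. These bounds take the WT level as exact, so they are not limits of a 95% interval. They follow the depth and do not rank the mutants.

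On the log2 scale, the smallest falls among the top 10 in kin-3 were at 21ur-8034 and 21ur-5702. Both had a kin-3 read and were the lowest of the top 10 in WT. In prg-1 the smallest falls were at 21ur-5702 (-2.99), with a prg-1 read, and 21ur-8034 (-3.67), without one. Other top 10 loci with a mutant read fell further, 21ur-13680 in kin-3 (-5.06) and 21ur-2683 in prg-1 (-4.41). In prde-1, with no read on any of the top 10, the smallest falls were at the same loci, 21ur-8034 (-3.67) and 21ur-5702 (-3.50). Their WT means were 11.96 and 10.84 RPM, so a low WT level alone limits the fall. In kin-3, 21ur-8034 had a log2 fold change of -2.69 (SE 0.64, limma adjusted p = 0.0089) and 21ur-5702 one of -2.77 (SE 0.63, adjusted p = 0.0070). The first call ended with only kin-3 and WT fitted (0.0531), without WT replicate 1 (0.0574) and without WT replicate 2 (0.0890); the second ended with pseudocount 0.1 (0.0516) and without WT replicate 2 (0.0780). In prg-1, 21ur-5702 had -2.99 (SE 0.63, adjusted p = 0.0051) and lost the call without WT replicate 2 (0.0622).

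The few reads left in the mutants were spread over 11 members. All 4 kin-3 reads lay on 3 of the top 10 loci (21ur-13680, 21ur-8034 and 21ur-5702) and both prg-1 reads on 2 of them (21ur-2683 and 21ur-5702). None of the 15 prde-1 reads did, in the deepest libraries of the series. The top 10, whose choice by WT level itself favours a fall, were 56.9-fold lower in kin-3 worms (95% counting interval 22.1 to 210), at least 920-fold lower in prde-1 worms, and 211-fold lower in prg-1 worms (58.0 to 1743) than in WT worms, where they had 569 reads. The prde-1 reads lay on 7 loci: 8 reads on 21ur-5666, 2 on 21ur-57, and 1 each on 21ur-3184, 21ur-1294, 21ur-6615, 21ur-5136 and 21ur-6297. Of these, 21ur-3184, at 9.05 ± 1.95 RPM in WT (SD, n = 2), was 102-fold lower (16.4 to 4214), while 21ur-57, at 2.74 ± 3.87 RPM in WT, was 12.1-fold lower (1.99 to 127).

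21ur-5666 (17143259 to 17143279, minus strand, in no other annotated gene) had no read in kin-3 or prg-1 and stood at 0.749 and 0.713 RPM in prde-1, 4 reads in each library, against no read in WT. It held 53.3% of the prde-1 reads of the right end. It did not pass the filter; without the filter, where it was the only member called higher in any mutant, limma gave a log2 fold change of 0.79 (SE 0.13, adjusted p = 0.0025) in prde-1. The floor of the WT libraries, 1.33 RPM, lies above the prde-1 level of 0.731 RPM: at that level 1.65 WT reads would be expected, and the 95% counting interval of the ratio of prde-1 to WT begins at 0.352. A difference from WT was therefore not detectable at this depth. Nearby, 21ur-6297 (start 17144472, sense within an intron of Y116A8C.40) had 1 prde-1 read and no WT read. Without 21ur-5666 the right end was 703-fold lower in prde-1 (340 to 1753); as the locus was picked out for its prde-1 reads, leaving it out can only lower the prde-1 level.

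Whether the right end lost its piRNAs to the same degree as the rest of the large cluster was asked by its share of the chromosome IV level from 13 Mb. That share was 4.55% and 15.8% for the kin-3 libraries, 6.09% and 6.96% for the prde-1 libraries, and 1.82% and 3.23% for the prg-1 libraries, against 3.69% and 3.71% for the WT libraries. The kin-3 shares rest on 1 of 22 and 3 of 19 reads, with exact 95% binomial intervals of 0.115% to 22.8% and 3.38% to 39.6%. No difference passed the threshold: the exact permutation p was 0.500 for WT against the other 6 libraries and 0.295 over the 4 genotypes (adjusted 0.500 and 0.394). In prde-1, both libraries lay above both WT libraries, and 21ur-5666 gave 8 of their 15 reads. Without that locus, a step that can only lower them, they stood at 2.70% and 3.60%.

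With all members counted, and set beside the windows to its left, the right end kept the largest percentage of the WT level in kin-3 and prde-1 and the smallest in prg-1. In kin-3 the pooled level was 0.177%, 0.229%, 0.425% and 0.532% of WT in the windows from 13, 14, 15 and 16 Mb and 0.985% at the right end (95% counting interval 0.268% to 2.53%). In prde-1 it was 0.0803%, 0.153%, 0.156% and 0.247%, and 0.305% at the right end (0.170% to 0.505%). In prg-1 it was 0.431%, 0.427%, 0.512% and 0.332%, and 0.267% at the right end (0.0322% to 0.965%). The interval of the right end overlaps those of all 4 windows in kin-3 and in prg-1. In prde-1 it overlaps those of the windows from 14, 15 and 16 Mb and lies above that of the window from 13 Mb (0.0400% to 0.144%). By library, the rise from window to window held in both prde-1 libraries. The prde-1 rank of the right end rests on 21ur-5666, with 4 reads in each library. Without that locus, left out for its prde-1 reads, the right end stood at 0.142% of WT by library means. That lies below the windows from 14, 15 and 16 Mb. On pooled reads it was then 703-fold lower (340 to 1753), which overlaps the interval of the window from 13 Mb (695 to 2497). In kin-3, 2 of the 4 reads at the right end lay on 21ur-13680. Without that locus, left out after its values were seen, the pooled kin-3 level there was 172-fold lower than WT (95% counting interval 47.3 to 1419). In the window from 16 Mb, with all loci counted, it was 188-fold lower (110 to 353). The right end had the highest percentage in kin-3 library 2 (1.19%, on 3 reads). In kin-3 library 1 the window from 16 Mb had 0.760% and the right end 0.654%, on 1 read. In prg-1 it had the lowest in library 1 (0.230%) and not in library 2, where the window from 16 Mb was lower (0.265% against 0.318%). The 3 series share the same WT libraries.

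**Figure D4:**
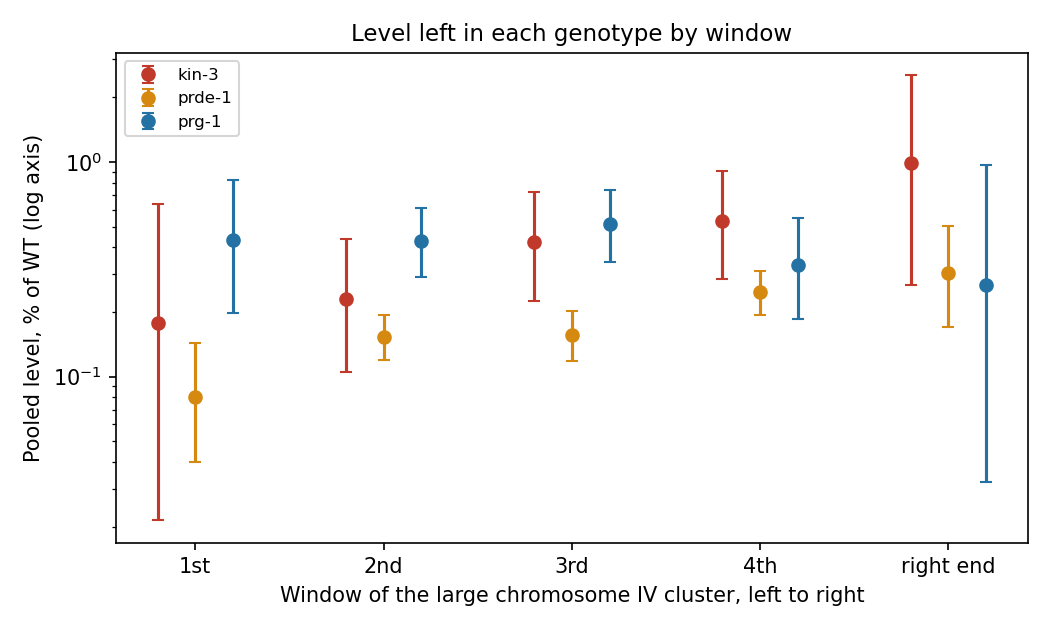
Pooled level as a percentage of WT (log axis) for each mutant, for the 4 windows of 1 Mb from 13 Mb and for the right end from 17 Mb, with 95% counting intervals. At the right end the values are 0.985%, 0.305% and 0.267%, with intervals that overlap each other.

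With all members counted and the authors' scaling, no pair of mutants differed beyond the counting interval. The pooled level in kin-3 was 3.23 times that in prde-1 (95% counting interval 0.781 to 10.1). It was 3.70 times that in prg-1 (0.530 to 40.9). The level in prde-1 was 1.14 times that in prg-1 (0.266 to 10.3). Without the locus that held 53.3% of the prde-1 reads, kin-3 stood at 6.93 times prde-1 (1.49 to 27.2). That interval lies above 1. The level in prde-1 was then 0.534 times that in prg-1 (0.102 to 5.27). As the locus was picked out for its prde-1 reads, leaving it out can only lower the prde-1 level. These ratios therefore do not rank the mutants. Both kin-3 libraries lay above all prde-1 and prg-1 libraries, but 2 libraries against 2 cannot give an exact permutation p under 0.33, and the kin-3 values rest on 1 and 3 reads. The order depends on the scaling: with TMM, kin-3 stood at 0.166 times prde-1 and 1.72 times prg-1, and prde-1 at 10.3 times prg-1. As most of the piRNAs behind the TMM factors were called lower, the TMM order does not rank the mutants either.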

How the data were processed

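Trizol-extracted RNA was enriched for small RNAs on a column, treated with PIR-1 and ligated to adaptors, per the labels' protocols. Cutadapt 1.18 and Bowtie 1.2.1.1 are named in the submitters' processing notes; the sources used here give neither their settings nor the build, nor how multiply matching reads were handled.

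As deposited by the authors, the data are 1 table with 1 column of RPM per library; no column of values was left unused. In every library 100% of the positive values were whole multiples of the smallest (tolerance 0.01 reads), and the scaling total was taken as 1e6 over that smallest value. For kin-3 and prg-1 this rests on few positive values, 36 and 36, and 75 and 46. Positions were compared with Ensembl release 115 of WBcel235, which matched 9620 of the 9742 loci. No sequence was used here, so the planned search for the upstream motif was not run; cell type markers were not measured.

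The main test was limma 3.58.1 (R 4.3.3) on log2(RPM + 1) with a trended prior, genotype being the only factor across all 8 libraries, on the 695 piRNAs with a mean of at least 1 RPM, two-sided, with Benjamini-Hochberg adjustment and a threshold of 0.05. This scale understates fold changes of low piRNAs, and genotypes at 0 add no spread, so that SEs can be small. Quasi-likelihood tests of edgeR 4.0.16 on the recovered reads were an alternative; they called 675, 683 and 683 of the 695 lower (kin-3, prde-1, prg-1), with 2, 6 and 2 higher. Both tools were tested on simulated data in which a minority of piRNAs was lowered, in kin-3 only. That setting is unlike these data, where nearly all tested piRNAs were called lower in each mutant. Totals were compared by exact permutation of libraries. Intervals are exact (Poisson, binomial, or conditional binomial for ratios), and the floor is 3 reads of a genotype's pooled total; both cover counting error only, since no molecular identifiers are mentioned. The members, lists and tests were chosen with earlier results of these data known. Loci named are the 10 with the highest WT mean, those with mutant reads, the outermost ones, and tested loci in coding exons; others were chosen after their values were seen.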

Additional observations from a re-analysis of the deposited data

How the results depend on the processing

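All 21 tested members kept a lower call in each mutant with pseudocount 5, TMM rescaling, edgeR, the replicate block and without the locus of several positions; with pseudocount 0.1 this held in prde-1 and prg-1, and 20 of 21 in kin-3. The replicate number marks no stated batch, and same-numbered libraries did not deviate together (correlations -0.0286 to 0.0741), so the block, with 21 called in each, is given only here. Counts of calls moved where the number tested did: 68 in each mutant without the filter, 1 at a mean of at least 10 RPM, and 34 (kin-3), 35 (prde-1) and 35 (prg-1) with only the genotypes compared; leaving out 1 library gave 9 to 23, 11 to 23 and 10 to 23. TMM moved the median log2 fold change of all tested piRNAs from -3.06, -3.06 and -3.04 to -1.60, -1.57 and -1.60.

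As a percentage of WT, the summed level was 1.56 (kin-3), 9.39 (prde-1) and 0.908 (prg-1) with TMM and 1.32, 0.0285 and 0.393 over loci with a mean of at least 1 RPM. With the boundary moved 0.1 Mb to the right it was 0.633 in the prde-1 and 0 in the prg-1 libraries, and moved 0.1 Mb to the left 0.204 for prde-1. Without 21ur-13680 it was 0.622 (kin-3) and 0.362 (prde-1), and without 21ur-5666, left out for its prde-1 reads, 0.142 (prde-1). The share of the level from 13 Mb was 20.0% (kin-3), 1.25% (prde-1), 7.94% (prg-1) and 3.83% (WT) over loci with a mean of at least 1 RPM, and 3.15% in prde-1 without 21ur-5666. Over loci with that mean, which they reach through WT, the right end held only 4 kin-3, 1 prde-1 and 2 prg-1 reads, so these shares do not rank the mutants. At 1 RPM or more, 0 members were detected in prde-1, and at the depth of the shallowest library 0.443 (prde-1), 0.419 (prg-1) and 57.8 (WT). With TMM the ratio of kin-3 to prde-1 turned to 0.166, that of kin-3 to prg-1 was 1.72 and that of prde-1 to prg-1 10.3. These omissions and the TMM ratios were chosen after seeing the data, and TMM takes as unchanged piRNAs that were mostly called lower. The ratio of prde-1 to prg-1 ran from 0.958 to 1.33 with 1 library left out. The cause of these shifts was not tested. Among alternatives for the named loci, 477 values kept direction and call and 6 lost the call. Most of these loci were chosen by WT level or passed the filter through it, so direction and call were favoured beforehand and the count is a description. Depth limits every mutant value: the right end rests on 4, 15 and 2 reads.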
